A study of Mus musculus with 8 samples.

Results

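Tumor-only regions near genes are stretches of open chromatin that were called as ATAC-seq peaks in the Tumor Sox9 list and in none of the 4 other peak lists of a mouse liver cancer study. They were found by merging all peaks of the 5 lists that shared at least 1 bp. A merged region was kept if it held a Tumor Sox9 peak alone and lay inside a protein-coding gene or less than 250 kb from one. This gave 8723 regions out of 138775 merged regions, or 6.29%, and out of 39177 regions with a Tumor Sox9 peak. At any distance from genes there were 11720 Tumor-only regions. The members were chosen by the peak calls themselves, so their presence in Tumor Sox9 and their absence elsewhere are the selection and not a finding.

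ATAC-seq maps open chromatin by letting a transposase cut and tag accessible DNA. The libraries came from primary liver cells of an Rb family triple knockout mouse model of hepatocellular carcinoma, the cancer of the liver's hepatocytes. YFP-positive cells, in which Cre had recombined the floxed alleles, were sorted from digested liver or from macroscopic lesions by the surface proteins Thy1 and EpCAM, and this recombination is common to all groups. The labels list 8 samples in 5 groups, namely Thy1+ CK19 (2), Thy1+ Sox9 (1), EpCam_High CK19 (2), EpCam_High Sox9 (1) and Epcam- (2). No group without recombination is among them, and the labels do not give the animals' age, the promoter that drove Cre or what CK19 and Sox9 in the names stand for. The Tumor Sox9 list held 39644 peaks, the Prog-like lists 71375 (CK19) and 67855 (Sox9), and the EpCAM-high lists 56932 (CK19) and 59454 (Sox9). Both EpCAM-high lists carry the name of a sample group, whereas the Tumor and Prog-like names match no sample label and are used as the authors wrote them. Each condition has a single list, so spread between replicates could not be measured and conditions were not tested against each other. Shares carry exact (Clopper-Pearson) 95% intervals and medians carry exact order-statistic 95% intervals, both of which cover counting error only, and read depth is unknown.

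Open regions at gene starts are promoters, where transcription begins, and many of these are rich in CpG dinucleotides and open in most cell types. Open regions away from gene starts include enhancers, which differ more between cell types and bind the transcription factors that give a cell its identity. In hepatocytes such factors include HNF4A, the FOXA proteins and the CEBP proteins, which act on genes for plasma proteins, bile acid synthesis, detoxification and the urea cycle.

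Promoter sequences are printed here as examples of gene starts at or near which strong Tumor-only regions lay. Over all members, 2.88% overlapped a promoter window. RefSeq promoter windows (GRCm38.p6, the mm10 build) run from 250 bases before a gene's start to 50 bases after it, and 17492 of 21887 protein-coding genes have one. The first 6 belong to the protein-coding genes whose window was overlapped by the strongest members. Bbox1 (chr2:110305676-110305975, minus strand) encodes the last enzyme of carnitine synthesis, Nr6a1 (chr2:38784466-38784765, minus strand) an orphan nuclear receptor, and Timd2 (chr11:46707055-46707354, minus strand) a cell surface receptor of the TIM family. Hao1 (chr2:134554303-134554602, minus strand) encodes the liver's glycolate oxidase, Trhde (chr10:114802253-114802552, minus strand) an enzyme that degrades thyrotropin-releasing hormone, and F10 (chr8:13037058-13037357, plus strand) coagulation factor X. Fgb (chr3:83049814-83050113, minus strand), the fibrinogen beta chain, and Apoh (chr11:108395047-108395346, plus strand), the plasma protein beta-2-glycoprotein I, were added after their values were seen, as the hepatocyte genes with the strongest such members. Capitals mark matches, on either strand, to any of 10 short motifs that are spelled out beside their frequencies further on.
Bbox1: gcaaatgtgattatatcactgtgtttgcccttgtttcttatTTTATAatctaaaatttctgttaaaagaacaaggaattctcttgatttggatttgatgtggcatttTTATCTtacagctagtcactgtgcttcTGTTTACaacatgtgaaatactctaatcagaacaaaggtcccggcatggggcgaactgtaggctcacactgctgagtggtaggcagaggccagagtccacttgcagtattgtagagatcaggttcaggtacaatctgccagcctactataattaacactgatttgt
Nr6a1: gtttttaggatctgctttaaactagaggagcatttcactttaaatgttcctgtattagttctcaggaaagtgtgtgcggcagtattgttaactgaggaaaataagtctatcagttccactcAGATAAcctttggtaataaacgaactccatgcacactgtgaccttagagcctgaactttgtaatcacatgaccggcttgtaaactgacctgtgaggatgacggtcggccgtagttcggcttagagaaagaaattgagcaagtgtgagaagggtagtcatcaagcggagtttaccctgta
Timd2: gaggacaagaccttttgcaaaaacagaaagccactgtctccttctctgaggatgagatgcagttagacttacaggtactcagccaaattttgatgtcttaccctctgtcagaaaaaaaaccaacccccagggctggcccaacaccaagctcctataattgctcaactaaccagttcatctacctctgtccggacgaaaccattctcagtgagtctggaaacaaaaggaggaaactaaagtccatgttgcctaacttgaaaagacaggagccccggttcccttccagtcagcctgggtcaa
Hao1: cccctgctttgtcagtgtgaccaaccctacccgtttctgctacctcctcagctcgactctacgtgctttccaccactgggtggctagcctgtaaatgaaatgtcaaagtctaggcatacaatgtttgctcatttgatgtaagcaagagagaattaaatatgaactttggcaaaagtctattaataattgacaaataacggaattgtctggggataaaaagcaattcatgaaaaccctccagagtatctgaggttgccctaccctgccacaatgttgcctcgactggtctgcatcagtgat
Trhde: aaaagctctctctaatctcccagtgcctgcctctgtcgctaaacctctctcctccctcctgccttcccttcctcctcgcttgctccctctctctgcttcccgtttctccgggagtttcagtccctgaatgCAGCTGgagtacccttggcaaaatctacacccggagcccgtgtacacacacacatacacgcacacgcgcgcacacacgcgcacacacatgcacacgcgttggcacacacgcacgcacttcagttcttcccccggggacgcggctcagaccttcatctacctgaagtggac
F10: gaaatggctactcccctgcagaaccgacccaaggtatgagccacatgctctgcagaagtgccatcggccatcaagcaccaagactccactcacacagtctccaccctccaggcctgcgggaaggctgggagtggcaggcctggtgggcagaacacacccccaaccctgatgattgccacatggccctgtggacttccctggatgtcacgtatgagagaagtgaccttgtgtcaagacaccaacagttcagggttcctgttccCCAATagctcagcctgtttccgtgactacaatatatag
Fgb: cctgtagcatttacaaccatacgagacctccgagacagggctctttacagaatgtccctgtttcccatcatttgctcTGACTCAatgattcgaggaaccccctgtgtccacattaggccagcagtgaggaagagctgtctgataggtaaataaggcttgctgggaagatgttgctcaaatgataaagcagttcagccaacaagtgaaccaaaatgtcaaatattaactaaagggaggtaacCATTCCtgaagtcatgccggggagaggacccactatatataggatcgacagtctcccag
Apoh: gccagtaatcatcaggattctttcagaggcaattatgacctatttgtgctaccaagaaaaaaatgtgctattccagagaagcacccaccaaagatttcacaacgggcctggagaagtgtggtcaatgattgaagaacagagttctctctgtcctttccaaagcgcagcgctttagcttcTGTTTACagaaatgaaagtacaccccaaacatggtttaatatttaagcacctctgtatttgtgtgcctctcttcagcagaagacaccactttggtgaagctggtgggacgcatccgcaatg

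The member over the Bbox1 start was the second strongest of all 8723, with a −log10 q of 59.6. Those over the Nr6a1, Timd2, Hao1 and F10 starts had −log10 q values of 24.5, 24.4, 24.0 and 22.0, and those over the Fgb and Apoh starts had 17.9 and 13.7. The member at Trhde, with 24.0, overlapped an edge of the window and ended before reaching the start itself. Of the 8 printed windows, that of Trhde was the CpG-rich one with 19 CpG dinucleotides, and the others held 2 (Bbox1), 3 (Timd2), 5 (Hao1, F10, Fgb and Apoh) and 8 (Nr6a1).

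Over all genes, 251 members overlapped 268 promoter windows of 258 genes, coding and non-coding. These windows had a median of 4 CpG dinucleotides, against 22 in the 12126 windows overlapped by Tumor regions shared with another list and 7 in all 32851 windows. The windows at EpCAM-high Sox9-only regions, found in that list and in no other, had a median of 7. The FOX letters TGTTTAC occurred in 6.72% of the windows at members (4.03 to 10.4), 4.35% at EpCAM-high Sox9-only regions, 2.80% at shared Tumor regions and 3.65% of all windows. GC-rich letters ran the other way. The SP/KLF letters GGGCGG occurred in 12.3% at members (8.63 to 16.9), 38.0% at EpCAM-high Sox9-only regions, 66.9% at shared Tumor regions and 35.7% of all windows. The ETS letters CCGGAA occurred in 7.46% (4.62 to 11.3), 9.78%, 29.5% and 14.9% of the windows in the same order. The E2F letters GGCGGGAA occurred in 0.746% (2 of 268 windows, 0.0905 to 2.67), 1.81%, 4.38% and 2.19%. For ETS and E2F the interval at members includes the share at EpCAM-high Sox9-only regions, and for E2F also that over all windows. Median GC content in the same order was 48.7%, 53.0%, 62.0% and 52.7%.

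In proportion to their share over all windows, the other motifs differed less. At members and over all windows, the AP-1 letters TGANTCA stood in 10.4% and 7.81%, the E-box letters CAGCTG in 20.1% and 16.3%, the GATA letters AGATAA in 14.9% and 11.2%, and the TEAD letters GGAATG in 18.3% and 14.7%. The TATA letters TATAAA stood in 16.0% and 13.6%, and the NF-Y letters CCAAT in 35.1% and 37.4%. At shared Tumor regions the shares were 4.54% (AP-1), 14.0% (E-box), 5.55% (GATA), 11.4% (TEAD), 6.26% (TATA) and 37.7% (NF-Y). At EpCAM-high Sox9-only regions they were 16.3%, 23.2%, 13.4%, 15.9%, 10.5% and 36.6% in the same order. Both strands were searched, SP/KLF and E2F matches can share letters, and a match is only a run of letters in the window.

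Tumor-only regions were weaker and narrower than the Tumor peaks shared with another list. Their median −log10 q, the authors' measure of peak significance, was 4.55 (4.36 to 4.71), their median fold enrichment over background was 4.34 and their median width 343 bp (339 to 348). The 27033 Tumor Sox9 peaks near genes that overlapped another list had medians of 12.1, 6.43 and 621 bp. Regions of the other single-list sets were narrower than members, with median widths from 192 bp (Prog-like Sox9-only) to 266 bp (EpCAM-high CK19-only). The smallest width was 215 bp among members and 134 to 180 bp in these sets, so widths are not fully comparable between lists. The median −log10 q of these sets, each in its own list, ran from 4.13 (EpCAM-high CK19-only) to 7.46 (Prog-like CK19-only). A −log10 q of 5 or more was reached by 47.1% of members and by 85.3% of the shared peaks, and one of 20 or more by 4.32% and 26.6%. When all Tumor Sox9 peaks were put in order of −log10 q and cut into 10 equal bins, members made up 3.46% of the strongest bin (2.91 to 4.07) and 44.0% of the weakest (42.5 to 45.6), with a higher share in each bin than in the one before. With a −log10 q of at least 5 asked of the Tumor peaks, 4111 members were left, and with the same asked of every list there were 4833.

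**Figure D1:**
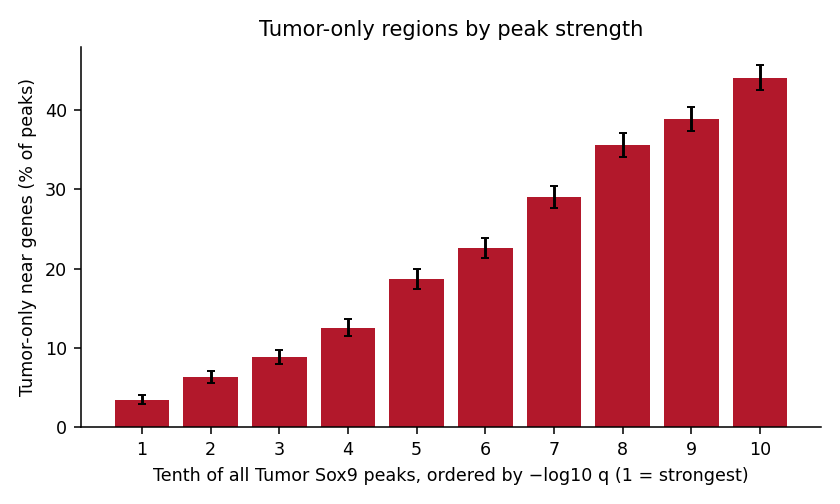
Share of Tumor Sox9 peaks that were Tumor-only regions near genes (vertical axis, percent) in 10 equal bins of the list from the strongest to the weakest peaks by −log10 q (horizontal axis). Bars are shares and lines exact 95% intervals. The share was 3.46% in the strongest bin and 44.0% in the weakest.

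Members made up 24.7% (24.3 to 25.2) of the 35298 Tumor regions near genes, and 4442 protein-coding genes (20.3%) held one or were the nearest gene to one. Some members lay close to a region of another list, 14.1% of them under 1000 bp from one and 1.26% under 100 bp. The median distance was 6264 bp. Members in Fgd6, Slc16a12, Zfp710 and Arhgap6 touched a region of another list end to end without sharing a base. At the outer limit, the members farthest from a gene were near Grik2 (249885 bp), Rybp (249756 bp) and Ets1 (249737 bp). The nearest regions left out were near Pabpc4l (250144 bp), Nav3 (250150 bp) and Csmd3 (250169 bp).

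Tumor-only regions were mostly away from gene ends. Of the members, 6.09% (5.59 to 6.61) lay at most 1000 bp from a start or end of a coding gene, against 37.9% (37.3 to 38.5) of shared Tumor regions near genes. Inside gene bodies lay 53.1% of members and 69.4% of shared Tumor regions, and more than 50 kb from any gene lay 20.1% and 8.74%. The median distance to the nearest RefSeq transcription start was 29868 bp for members, against 8194 bp for shared Tumor regions. Regions found in another single list also had low gene-end shares. These were 4.91% (4.52 to 5.31) for EpCAM-high Sox9-only and 4.89% (4.48 to 5.33) for EpCAM-high CK19-only regions. For Prog-like Sox9-only and Prog-like CK19-only regions they were 4.19% (3.63 to 4.80) and 5.94% (5.47 to 6.45). The annotation used here gives no exons, so introns and exons were not separated.

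Along genes of known strand, members were spread nearly evenly. With each gene cut into 10 equal pieces, the piece at the start held 12.4% (11.4 to 13.6) of 3587 placements of a member in a gene, and the piece at the end 8.39%. Of the shared Tumor regions, 49.0% (48.1 to 49.8) of 13248 placements fell in the piece at the start and 4.53% in that at the end. In genes of 100 kb or more the piece at the start held 10.2% of member placements, against 27.9% of those of shared regions. Of the members outside genes with a strand known for the nearest gene, 53.8% (52.0 to 55.5) lay before its start, against 54.3% (53.1 to 55.6) of the shared Tumor regions.

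Of the 20 gene lists counted, the hepatocyte list had the most Tumor-only regions per length. Of 40 hepatocyte genes, 29 (72.5%, 56.1 to 85.4) held a member in the body or within 10 kb of it, against 18.5% of all protein-coding genes. Gene by gene these loci held 55 members, or 33.7 per Mb, where all protein-coding genes averaged 4.47 per Mb. Neighbouring genes share members, and counted once there were 47, with a median −log10 q of 5.39 and a highest of 23.7. The other single-list sets had few regions at the same 40 genes, with 3 genes for each CK19-only set and 5 genes for each Sox9-only set, or 1.84 to 3.68 regions per Mb. Over all coding genes, the shares with such a region were 23.9% for Prog-like CK19 and 12.1% for Prog-like Sox9, and 16.8% and 22.6% for the EpCAM-high lists of the same names. These sets are not fully comparable with the members. A region in both EpCAM-high lists or in both Prog-like lists belongs to no single-list set, whereas the Tumor list has no partner list. Shared Tumor regions stood at 30 of the 40 genes, against 65.6% of all coding genes. With 50 kb on each side the members' count was 35 of 40, against 36.4%. With members of −log10 q of 5 or more alone, 19 of 40 genes were left, against 11.5% of all genes, and the level was 19.6 against 2.29 per Mb. Members under 5 stood at 16 of the 40, against 10.1%. In cells analysed in bulk, more cells of a type and more open chromatin per cell cannot be told apart.

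**Figure D2:**
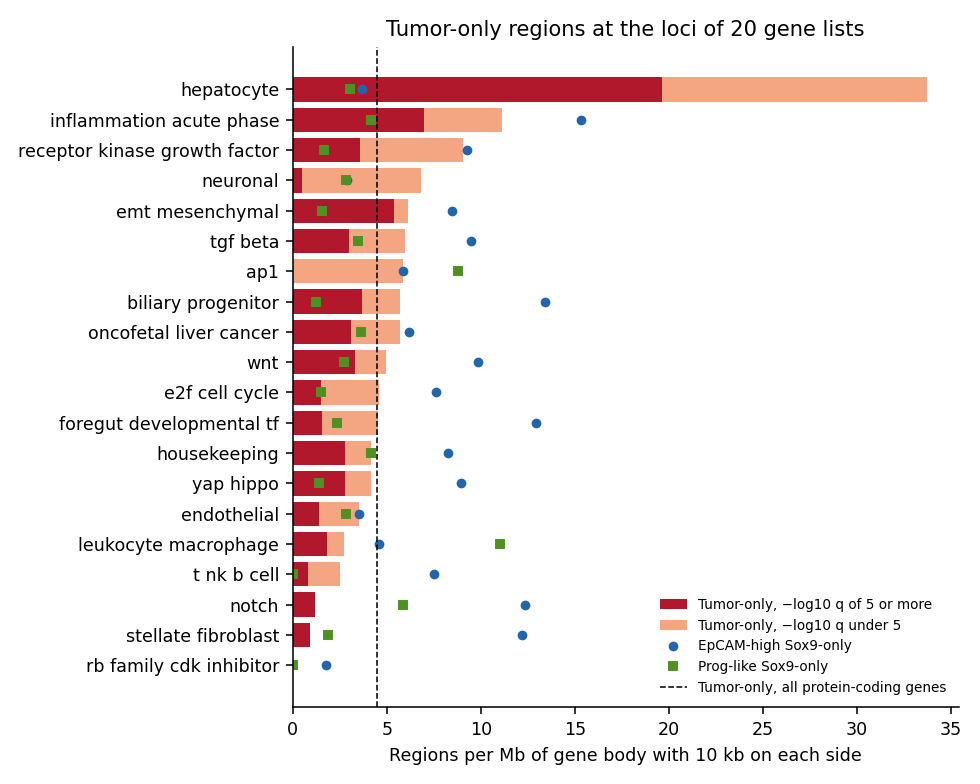
Tumor-only regions per Mb (horizontal axis) at the loci of 20 gene lists (vertical axis), a locus being the gene body with 10 kb on each side. Bars are stacked by peak strength, points give regions found in EpCAM-high Sox9 or Prog-like Sox9 alone, and the dashed line is the Tumor-only level over all protein-coding genes. Hepatocyte genes reached 33.7 per Mb against 4.47 for all genes, and no point at these genes was above 3.68.

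The hepatocyte genes with members covered several functions. Among genes for blood plasma proteins, the fibrinogen chains Fgb and Fga had 3 and 2 members in their loci, haptoglobin (Hp) had 3 and Apoh had 2. Among lipid-carrying proteins, Apoc3 had 4, Apoa1 had 3 and Apoa2 had 2. Among enzymes of amino acid and nitrogen metabolism, Tat and Ass1 had 3 each, Cps1, which starts the urea cycle, had 2 and Otc, its next enzyme, had 1. Among genes of glucose production, Pck1 had 2 and G6pc had 1. The nuclear receptor genes Nr1i3 and Ppara had 2 each and Nr1h4, the bile acid receptor, had 1. Among the factors that define the cell type, Hnf4a had 3, and Foxa1, Foxa3 and Onecut1 had 1 each. No member lay within 10 kb of Foxa2, Cebpa, Cebpb, Apob, Apoe, Serpina1a, Tdo2, Hpd, Cyp2e1, Cyp1a2 or Glul.

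At 14 of the 40 hepatocyte genes a member lay within 1000 bp of a gene end, against 2.48% of all protein-coding genes, and at 9 a member overlapped a promoter window, against 0.717%. The strongest of these lay at the start of Fgb (−log10 q 17.9), which had 1 region in the Tumor list and 0 in each of the 4 other lists. At the lower end of Cps1, whose strand is not given, a member had a −log10 q of 14.3. Cps1 was open elsewhere in every list, with 3 Tumor regions against 6 (CK19) and 3 (Sox9) in the EpCAM-high lists and 2 (CK19) and 1 (Sox9) in the Prog-like lists. A member over the start of Apoh had a −log10 q of 13.7, one within 1000 bp of the start of Nr1i3 had 11.4, one at the upper end of Hp had 13.2, and one over the start of Apoa1 had 9.89.

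Weaker members covered the starts of Otc (7.79), Cyp3a11 (4.15) and G6pc (2.92), and one of 2.29 lay inside Ass1 within 1000 bp of its start. The member at Alb, the gene of serum albumin, began 72 bp after the end of the gene and had a −log10 q of 9.29. The body of Alb itself held 2 Tumor regions, none of them Tumor-only, against 1 in EpCAM-high CK19, 3 in EpCAM-high Sox9 and 0 in both Prog-like lists. In 7 hepatocyte genes the body held a Tumor-only region and no region of any other list, namely Apoc3, Apoh, Asgr1, Cyp3a11, Fgb, G6pc and Hp. These 7 of 40 compare with 0.932% of all protein-coding genes and with 1.09% of those under 50 kb. This group was defined after values were seen.

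Hnf4a, the nuclear receptor central to hepatocyte identity, held 3 members, all inside the gene. The largest, at chr2:163539144-163541046, was 1903 bp wide with a −log10 q of 14.6, and the others had −log10 q values of 8.28 and 5.40. Hnf4a was open in every list, with 4 Tumor regions against 3 in each of the 4 other lists. Ppara, a receptor that controls fat oxidation, held members of −log10 q 11.1 and 10.4 more than 30 kb from any region of another list. The antithrombin gene Serpinc1 held 4 members in 24.0 kb, with −log10 q values of 19.2, 12.2, 4.54 and 3.10, the nearest region of another list being at least 12602 bp away. Its body also held 1 region in each Prog-like list and 0 in each EpCAM-high list. Afp, the fetal albumin relative used as a liver cancer marker, had 1 member in the body (−log10 q 4.30) and 2 flanking ones. That member was the 1 Tumor region in the Afp body, which held 3 (CK19) and 2 (Sox9) regions in the Prog-like lists. Each EpCAM-high list held 0 there.

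Genes of the bile duct and progenitor programme had members at 10 of 30 loci (33.3%, 17.3 to 52.8), or 5.69 per Mb, beside 18.5% and 4.47 per Mb for all protein-coding genes, among them Onecut2, Pkhd1, Bicc1 and Sctr with 2 each. EpCAM-high Sox9-only regions were at 17 of the same 30 loci, or 13.4 per Mb, beside 22.6% and 5.67 per Mb for all genes. Growth factor and receptor kinase genes had members at 12 of 24 loci (95% interval 29.1% to 70.9%) and 9.05 per Mb, with 12 in Erbb4, 6 in Nrg1, 4 in Fgfr2, 3 in Met and 3 at Fgf21, a hormone that the liver secretes. At the same 24 loci EpCAM-high Sox9-only regions stood at 16, with 9.29 per Mb, and EpCAM-high CK19-only regions at 9, with 7.62 per Mb. TGF-beta genes had members at 10 of 20 loci (27.2% to 72.8%) and 5.98 per Mb, where the single-list sets of the EpCAM-high cells had 10 (CK19) and 8 (Sox9) loci with 8.96 and 9.46 per Mb. Developmental transcription factor genes had members at 11 of 24 loci (45.8%, 25.6 to 67.2) and 4.51 per Mb, 6 of them in Zbtb20, where EpCAM-high Sox9-only regions stood at 19 loci with 12.9 per Mb. These lists hold long genes, with median lengths of 61.5, 69.0 and 95.3 kb, against 17.2 kb over all coding genes. Acute-phase and inflammation genes reached 11.1 per Mb with 6 of 22 loci, where EpCAM-high Sox9-only regions reached 15.3.

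The remaining pathway and cell type lists, the neuronal one aside, had at most 6.14 members per Mb, against 4.47 per Mb for all genes. Oncofetal and liver cancer genes had members at 6 of 23 loci, with 3 in Igf2bp3, an RNA-binding protein of fetal tissues. Wnt genes had members at 4 of 20, with 4 in Znrf3, a ligase that removes Wnt receptors, and YAP and Hippo genes at 5 of 16, with 2 in Yap1. E2F and cell cycle genes had members at 5 of 30 loci, mesenchymal transition genes at 3 of 16, AP-1 genes at 2 of 12, Notch genes at 2 of 18 and housekeeping genes at 2 of 20. None lay at the 12 genes of the Rb family and CDK inhibitor list, which also holds Trp53 and Mdm2, with an exact upper 95% limit of 26.5%. The background for each of these counts is the 18.5% of all protein-coding genes with a member. Markers of other cells in liver had members at 4 of 16 loci for endothelial, 2 of 20 for leukocyte and macrophage, 2 of 18 for T, NK and B cell and 1 of 16 for stellate and fibroblast genes, and the 95% interval of each of these 4 shares includes 18.5%. Prog-like CK19-only regions stood at 11 of the 20 leukocyte and macrophage genes, beside 23.9% of all coding genes.

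No member lay in the body or within 10 kb of Rb1, Rbl1, Rbl2, Epcam, Thy1, Krt19, Sox9, Ptprc, Cd3e, Col1a1 or Pecam1. Rb1, the retinoblastoma gene, held 6 Tumor regions, and its relatives Rbl1 and Rbl2 held 1 each. Epcam and Sox9 held 1 Tumor region each, whereas Krt19, which encodes CK19, held 0 against 2 in each EpCAM-high list, and Thy1 held 0 in every list. Ptprc, the CD45 gene of all leukocytes, held 0 Tumor regions against 2 in EpCAM-high CK19, 1 in EpCAM-high Sox9 and 13 in each Prog-like list.

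Members of highest significance lay in or near genes outside these lists. The strongest, at chr14:95928217-95929397, had a −log10 q of 83.9 and an 11.7-fold enrichment and lay 45437 bp from Spertl, between genes. The next were in Bbox1 (59.6), in Diaph3, a formin that assembles actin (58.3), in Kmo, an enzyme that breaks down the tryptophan product kynurenine (57.7), in Cadps2, a factor of vesicle release (54.5), and in Nudcd1 (54.2). The others of the first 15, with −log10 q between 49.8 and 46.9, were in Clybl, Urb1, Ankrd13c, Arap2, Uck2 and Tbc1d4 and outside Nudt7, Dusp10 and Antxr2. These 15 lay between 1495 bp and 33965 bp from the nearest region of another list. Of the 377 members with a −log10 q of 20 or more, 5.57% were at a gene end and 15.4% more than 50 kb from a gene.

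Of all members, 15 (0.172%, 0.0963 to 0.283) lay within 1000 bp of a hairpin in the set of 1005 microRNA hairpins used for this count. The share was 0.463% (0.385 to 0.552) for shared Tumor regions. A pair of related microRNAs was among those near members. Mir103-1 lies 415 bp from a member of −log10 q 19.4 in Pank3, and Mir107 lies 506 bp from one of 13.9 in Pank1. Pank3 and Pank1 encode pantothenate kinases, which start coenzyme A synthesis. The mature 3′ arms of both, from RefSeq, share their seed, shown in capitals as bases 2 to 8.
miR-103-3p: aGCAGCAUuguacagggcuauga
miR-107-3p: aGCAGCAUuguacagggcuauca

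The widest members were 2665 bp at an end of Olig1, a transcription factor of the oligodendrocyte lineage, 1903 bp in Hnf4a, 1893 bp at chr18:65249060-65250952, 1866 bp in Trhde near its start and 1789 bp in Ptprd. The 1893 bp region is nearest to the coding gene Alpk2 but lies 134 bp from Mir122, the most abundant microRNA of hepatocytes, and had a −log10 q of 17.4.

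Long genes held the most Tumor-only regions per gene. A member lay in the body of 2732 of 21887 protein-coding genes (12.5%), 1856 of which held 1, and 387 genes (1.77%) held 3 or more. The median length of genes with 3 or more was 254.4 kb, and that of the 31 genes with 10 or more (0.142% of coding genes) was 1020.0 kb. The median over all coding genes was 17.2 kb. Per length, members ran over 7 classes of gene length from a highest value of 6.11 per Mb in genes under 10 kb to a lowest of 3.68 in genes of 250 to 500 kb, with 4.99 in genes of 1 Mb or more. Regions of other single lists varied between 2.03 and 2.67 per Mb (Prog-like Sox9-only), 3.65 and 6.90 (EpCAM-high Sox9-only), 2.04 and 6.74 (Prog-like CK19-only) and 3.16 and 8.68 (EpCAM-high CK19-only). Shared Tumor regions dropped over the same classes, from 92.5 to 2.73 per Mb. Members therefore made up 6.20% of the Tumor regions in genes under 10 kb and 64.6% of those in genes of 1 Mb or more.

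Strong and weak members differed in this respect. Members with −log10 q of 5 or more had 2.43 per Mb in genes under 10 kb and 0.705 per Mb in genes of 1 Mb or more. Those under 5 had 3.69 and 4.28 per Mb. Of members with −log10 q under 3, 17.9% (16.4 to 19.4) lay in genes of 500 kb or more. The share was 10.7% between 3 and 5, 4.41% (3.64 to 5.29) between 5 and 10 and 4.93% between 10 and 20. Among members of 20 or more it was higher again, at 8.75% (6.10 to 12.1). The count of genes with 3 or more members was 137 when the Tumor peaks had to reach a −log10 q of 5, 193 when those of every list had to, and 603 when all lists were brought to the same length.

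**Figure D3:**
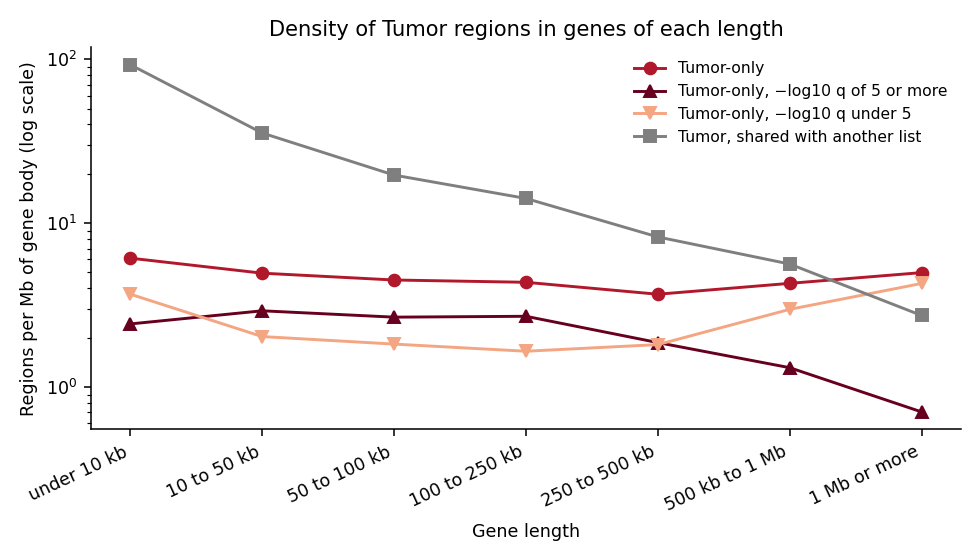
Regions per Mb of gene body (vertical axis, log scale) in protein-coding genes of 7 length classes (horizontal axis), for all Tumor-only regions, for those with −log10 q of 5 or more and under 5, and for Tumor regions shared with another list. Tumor-only regions stayed between 3.68 and 6.11 per Mb, whereas shared regions dropped from 92.5 to 2.73 per Mb.

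The 15 genes with the most members were long genes, many of them known from neurons. Lrrc4c, which encodes a postsynaptic adhesion protein, held 23 members among 25 Tumor regions, against 5 (CK19) and 1 (Sox9) in the EpCAM-high lists and 5 (CK19) and 3 (Sox9) in the Prog-like lists. They spanned 87.3% of the gene at a median spacing of 38.3 kb, and their −log10 q values were low, with a median of 2.25 and a highest of 4.61. Csmd3 and Lrp1b, large membrane proteins, held 22 members each, of 23 Tumor regions each, with median −log10 q values of 2.66 and 2.75. Robo2, an axon guidance receptor, held 19, Cadm2, a cell adhesion protein, 18, Cdh18, a cadherin, 17, and Epha6, an ephrin receptor, 15. Pcdh9, Cntn4, Dpp10 and Ptprd held 14 each, Grik2, Gpc5 and Cntnap2 13 each and Mgat4c 12.

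Median −log10 q values in these 15 genes ran from 2.03 (Grik2) to 3.75 (Cdh18). Single strong members stood in Epha6 (37.8), Cdh18 (35.0), Ptprd (25.9) and Pcdh9 (21.7). The genes were not empty in the other lists. Robo2 held 21 Tumor regions against 44 in EpCAM-high CK19, 16 in EpCAM-high Sox9 and 19 in each Prog-like list, and Dpp10 held 19 against 14, 17, 46 and 44.

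**Figure D4:**
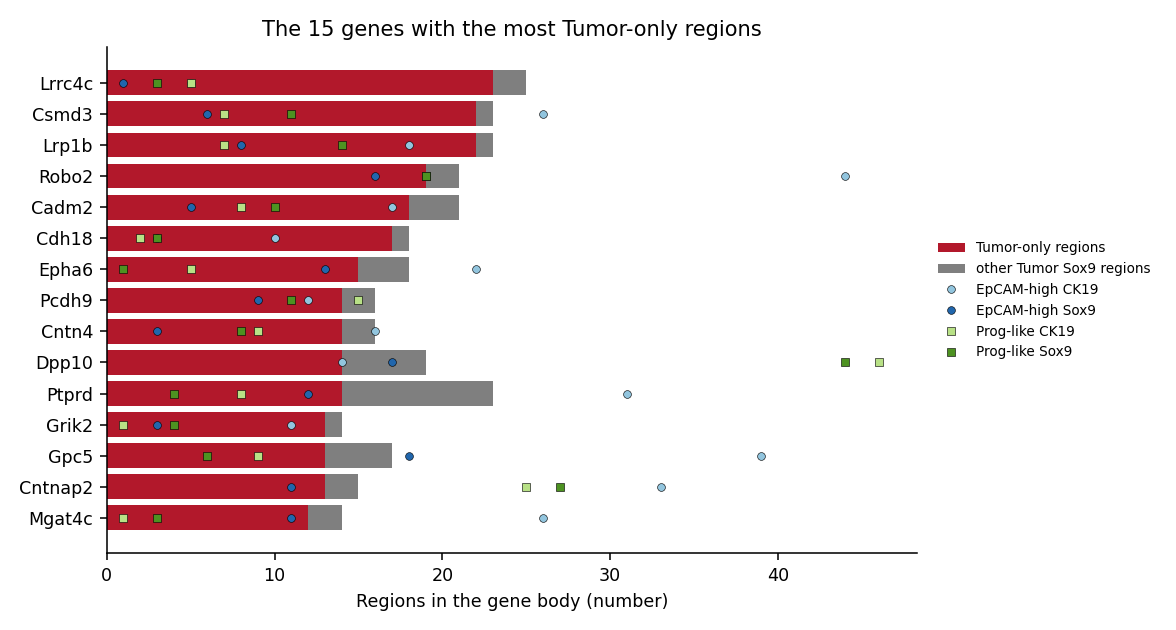
Number of regions in the gene body (horizontal axis) of the 15 genes with the most Tumor-only regions. Red bars are Tumor-only regions, grey bars the other Tumor Sox9 regions, and points the regions of each of the 4 other lists, with equal counts lying on each other. Lrrc4c had 23 Tumor-only regions and at most 5 in any other list, while Robo2 had 44 in EpCAM-high CK19.

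The 20 neuronal genes, a list chosen with these long genes in view, held members at 18 loci, beside 18.5% of all coding genes. Of the 59 coding genes of 1 Mb or more, 84.7% held a member in the body, at 4.99 per Mb. The neuronal loci held 184 members, or 6.81 per Mb, of which 0.481 per Mb had a −log10 q of 5 or more. EpCAM-high CK19-only regions reached 9.03 per Mb at the same loci, and the other single-list sets 2.55 to 2.89 per Mb. With Tumor peaks of −log10 q of 5 or more, 8 neuronal genes were left, beside 11.5% of all coding genes, and with that limit in every list 10, beside 12.9%. Hepatocyte genes, in contrast, had a median length of 10.2 kb, against 1250.5 kb for the neuronal list.

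Short genes with several members were mostly others. By members per 100 kb among genes with 3 or more, the first 10 were Ackr2 (23.6), Cldn1 (19.7), Tmem19 (18.4), Amy1 (18.3), Pcdh12 (17.3), Serpinc1 (16.7), Whamm (15.3), Ppp6c (12.5), Abcg8 (12.5) and Habp4 (12.2). Ackr2 is a chemokine scavenger, Cldn1 a tight junction protein, Amy1 an amylase and Abcg8 a subunit of the sterol exporter of the bile canaliculus. All 3 Tumor regions in Ackr2 were members, against 0 regions in each EpCAM-high list and 1 in each Prog-like list. Pcdh12 held 3 Tumor regions, all of them members, and 0 regions of any other list. In Amy1, as in other families of near-identical copies, the placement of reads is uncertain because their handling is not given.

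Runs of neighbouring members with no region of another list between them were scored next. Of the members, 65.5% stood alone and 13.4% were in runs of 3 or more, against 17.6% (CK19-only) and 10.5% (Sox9-only) for the EpCAM-high lists and 4.61% (CK19-only) and 1.52% (Sox9-only) for the Prog-like lists. The longest run had 9 members over 279.1 kb at the Cyp3a cluster of drug-metabolising cytochrome P450 enzymes, from Cyp3a44 through Cyp3a11 and Cyp3a25 to Cyp3a59, with a highest −log10 q of 13.9. Runs of 8 were at Pcsk5 (105.3 kb), Cdh18, Cntn6 and Pcdh17 and across Trim29 and Nectin1. Runs of 7 included the alcohol dehydrogenase genes Adh6b and Adh4 within 71.3 kb, the carbonic anhydrase genes Car13 and Car1, the Cyp2d cluster, and olfactory receptor genes whose members reached a −log10 q of at most 3.55. The Cyp3a, Cyp2d and olfactory receptor genes have close copies, so that the same limit on read placement holds.

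In fixed windows of 1 Mb, 163 windows held 10 or more members and 23.5% of all members. The fullest, with 21 members among 31 Tumor regions, started at position 112000001 of chromosome 10 around the potassium channel gene Kcnc2. Those with 20 lay next to each other on chromosome 7, one among vomeronasal (Vmn2r) and olfactory receptor genes and one at Nox4, Grm5 and Tyr. Those with 19 in the first 5 lay on chromosome 10 at Grik2 and at Ppfia2.

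Chromosomes differed in the share of their Tumor regions that were Tumor-only. The share was 30.9% (28.5 to 33.3) on chromosome 16, 28.5% on chromosome 14 and 28.2% on chromosome 3, and it was 18.2% on chromosome 4, 18.6% (16.9 to 20.4) on chromosome 11 and 19.2% (17.3 to 21.3) on chromosome 13. Among Tumor regions of −log10 q of 5 or more the shares were 17.6% on chromosome 16, against 11.6% on chromosome 4, 12.1% (10.5 to 13.8) on chromosome 11 and 11.6% (9.84 to 13.6) on chromosome 13. EpCAM-high Sox9-only regions made up 22.4% of the EpCAM-high Sox9 regions on chromosome 16, 22.2% on chromosome 4, 20.9% on chromosome 11 and 21.8% on chromosome 13.

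**Figure D5:**
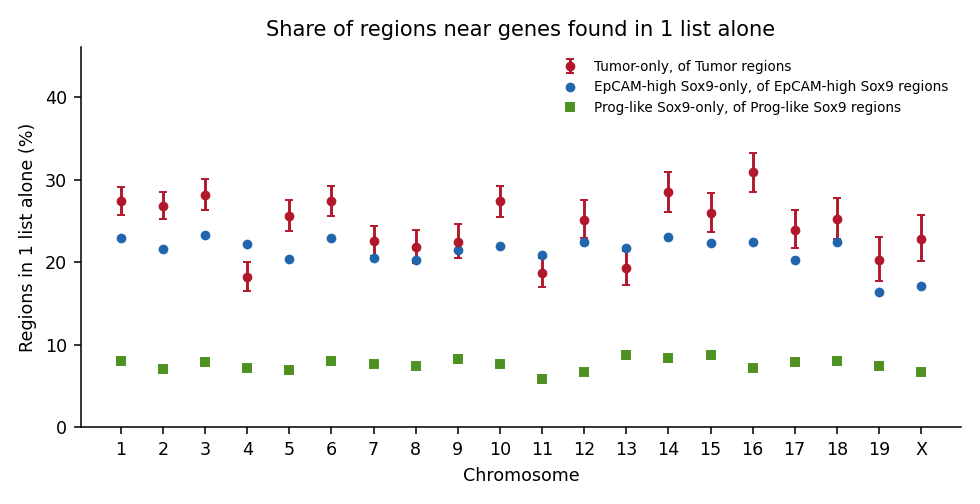
Share of regions near genes that were in 1 list alone (vertical axis, percent) by chromosome (horizontal axis, Y left out for its few regions). Red points are Tumor-only regions of all Tumor regions with exact 95% intervals, blue and green points the same share for EpCAM-high Sox9 and Prog-like Sox9. Tumor-only shares ranged from 18.2% on chromosome 4 to 30.9% on chromosome 16.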

How the data were processed

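ATAC-seq peaks were analysed from 5 deposited lists in the narrowPeak layout. Bowtie 1.1.2, MACS2, HOMER, deepTools and the build mm10 are named in the submitters' processing notes, with no role or order. Not given in the sources used here are the pooling of samples, duplicate and mitochondrial reads, multiply mapping reads, the transposase offset and read depth. A longer list may reflect a deeper library. Per the deposited layout, the signal column holds each peak's fold enrichment on a linear scale, and significance is given as −log10 p and −log10 q. The deposited integer score was not used. These are the authors' values and were used to describe, rank or filter peaks within a list.

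Merging, overlaps, distances and counts were computed with Python 3.11.15, pandas 2.3.3, numpy 2.4.6 and scipy 1.17.1, and the merging and counting steps were tested on simulated data. A region's −log10 q is that of its strongest Tumor peak. Gene positions are those of 21887 protein-coding RefSeq genes of GRCm38.p6 without the mitochondrial genome. Strand was known for the 17492 genes with a promoter window. A locus is the gene body with 10 kb on each side. A gene-end region lies within 1000 bp of either end. Region coordinates are 1-based.

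The members and the 20 gene lists were chosen with earlier results of these data known. Of the 407 different genes in the lists, H19, Trac and Ighm are not annotated as protein-coding, and Tf was matched as Trf. The rule for named genes took the 15 genes with the most members, the 10 densest, the 15 strongest members, up to 20 genes of the lists with a member at an end, the 5 widest members, the 5 fullest windows of 1 Mb, 14 fixed genes and 6 promoters. The promoters were limited to protein-coding genes, and none from chromosome 18 was used. A list gene that the rule would name is not reported here. Other genes given as examples were picked with their values known. With 1 list per condition no test was run. Alternatives were lists of equal length, a −log10 q limit of 5, a 50% overlap, a 1000 bp gap, a 50 kb limit, autosomes alone and wider windows. The Thy1+ and Epcam- samples have no list of that name and were not analysed here.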

Additional observations from a re-analysis of the deposited data

How the results depend on the processing

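No paired analysis was possible because each condition has 1 peak list and no test was run. Of 60 recomputed values, 36 stayed within their interval or within 1.5 times the count and 24 moved. The limit of −log10 q of 5 in every list gave 4833 members, 7.06% at gene ends, 58.0% in gene bodies, a median −log10 q of 8.78, 193 genes with 3 or more members and 10 neuronal genes. The same limit in the Tumor list alone gave 4111 members, 6.81%, 58.0%, 8.78 and 137 genes. With it, 8 neuronal genes, 19 hepatocyte genes and 2509 of all protein-coding genes had a member. Lists of equal length gave 7.90% at gene ends, 54.5% in gene bodies, a median −log10 q of 5.13 and 603 genes with 3 or more members. Members without a region of another list within 1000 bp had 5.40% at gene ends. The 50 kb nearness limit gave 7.61% at gene ends, 66.5% in gene bodies and a median −log10 q of 5.13, since it drops members far from genes. A gene-end window of 2500 bp took in 11.4% of members. With loci of 50 kb on each side, 7961 protein-coding genes had a member. Hepatocyte genes with a member numbered 19 to 35 of 40 over all settings run, beside 11.5% to 36.4% of all protein-coding genes. Peaks of 1 list carry no replicate error, neighbouring regions are not independent, and whether members lay just under the threshold of another list was not tested. With 1 list per condition, differences between conditions and between libraries cannot be told apart.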

Other observations

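Gene families were counted in the same way as the lists, beside the 18.5% of all protein-coding genes with a Tumor-only region in the locus. Serpin genes, which encode protease inhibitors of the plasma and of cells, had one at 23 of 63 loci (36.5%, 24.7 to 49.6), or 17.5 per Mb. Cytochrome P450 genes had one at 25 of 99 loci and 9.91 per Mb, solute carriers at 96 of 375 and 5.77 per Mb, and protocadherins at 35 of 69 and 6.10 per Mb. Cadherins had one at 12 of 23 loci and 6.67 per Mb. Olfactory receptors had one at 135 of 1110 loci and 6.25 per Mb, and vomeronasal receptors at 19 of 353 and 2.43 per Mb. The 39 Hox genes had none, with an exact upper 95% limit of 9.03%. Zfp genes (41 of 397), potassium channels (18 of 94), collagens (10 of 44), ribosomal proteins (9 of 97), histones (10 of 141), keratins (4 of 53) and claudins (2 of 35) had 2.62 to 3.97 per Mb.

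A further 7 families were chosen after values were seen. Apolipoproteins, the protein part of lipid particles in blood, had a Tumor-only region at 11 of 18 loci (61.1%, 35.7 to 82.7) and 41.9 per Mb, and alcohol dehydrogenases at 4 of 6 and 37.8 per Mb. Coagulation factors had one at 6 of 9 loci and 15.3 per Mb, UDP-glucuronosyltransferases, which conjugate drugs and bilirubin, at 12 of 21 and 11.8 per Mb, and sulfotransferases at 6 of 21 and 6.55 per Mb. Contactins, adhesion proteins of neurons, had one at 9 of 13 loci and 7.28 per Mb, and glutamate receptors at 6 of 19 and 4.63 per Mb. Genes of one family often lie side by side and share regions.

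Long non-coding RNA genes overlapped 10.3% of Tumor-only regions, against 14.8% of Tumor regions shared with another list.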
